A study of Oryctolagus cuniculus with 134 samples.

Results

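The comparison described here is that of the tricuspid valve of rabbits on a cholesterol-enriched diet (CHT) with the tricuspid valve of rabbits on standard chow (Ctrl), as seen by RNA sequencing. Its members were chosen by tissue and treatment label alone, which gave 6 CHT and 7 Ctrl samples, 13 of the 134 samples of the series. All animals were male New Zealand White rabbits that entered a 16-week protocol at 12 weeks of age, and the valves were dissected at its end. CHT rabbits ate a diet with 0.3% cholesterol and also drank vitamin D2 at 25000 U per day per 2.5 kg for the first 15 days, whereas Ctrl rabbits received neither, so the diet and the vitamin cannot be told apart in CHT against Ctrl. The 7 Lard tricuspid valves (5% lard diet with the same vitamin D2) and the 7 IR/CHT tricuspid valves (cholesterol diet, vitamin D2 and 24 Gy of cardiac irradiation after 8 weeks, in 3 fractions) entered the same model to share the estimate of the spread, and their levels are given beside the result. Each sample was the valve of a different rabbit.

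The tricuspid valve closes the opening between the right atrium and the right ventricle. Its leaflets are thin sheets of collagen, elastin and proteoglycan, kept by interstitial cells and covered by endothelium. Cells hold their sterol level by a pair of opposed programmes. When sterol is scarce, SREBP2 (gene SREBF2) turns on the enzymes of cholesterol synthesis and genes of sterol uptake. When sterol is plentiful, SREBP2 is held in the endoplasmic reticulum by INSIG and SCAP proteins, while oxysterols turn on the liver X receptors (LXR, among them NR1H3), whose targets export cholesterol (ABCA1) or limit its uptake (MYLIP, also called IDOL).

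The 13 CHT and Ctrl libraries held 14830996 to 22915847 counts. At 1 CPM (a count scaled to a library of fixed size), the smallest had 14.8 counts and a counting error of 26.0% (SD), which covers counting error only. Levels below are CPM scaled by the trimmed mean of M-values. Genes of leaflet tissue were present in every library: VIM ran from 3607 to 8363 CPM in Ctrl and from 4648 to 8906 CPM in CHT, DCN from 985 to 2270 CPM in Ctrl and from 1278 to 2034 CPM in CHT, and POSTN from 1038 to 3049 CPM in Ctrl and from 1691 to 4272 CPM in CHT. The endothelial gene PECAM1 ran from 108 to 708 CPM in Ctrl and from 411 to 670 CPM in CHT. Heart muscle RNA was present in every library, with a summed level of 14 contractile genes of 842 to 45732 CPM in Ctrl and 4325 to 36640 CPM in CHT, and 1 of the 14 (TCAP) was at 0 throughout. In bulk tissue, fewer cells of a type and less RNA per cell cannot be told apart.

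One library stood apart. The median correlation of Ctrl L168 with the other tricuspid valve libraries was 0.809, against 0.952 to 0.966 for the other 6 Ctrl and 0.939 to 0.963 for the 6 CHT libraries. Genes of the mitochondrial genome took 0.0373% of its counts, against 0.555% to 3.38% in the other Ctrl and 0.430% to 2.97% in the CHT libraries. It also held the lowest heart muscle sum of the Ctrl group and 8540 CPM of COL1A1, a fibrillar collagen gene at 360 to 515 CPM in the other Ctrl libraries. Among IR/CHT libraries, L197 had the lowest correlation, 0.873. Where a fold change printed below moved by over 1.5 times or turned its sign without Ctrl L168, the value without it is given as well.

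**Figure D1:**
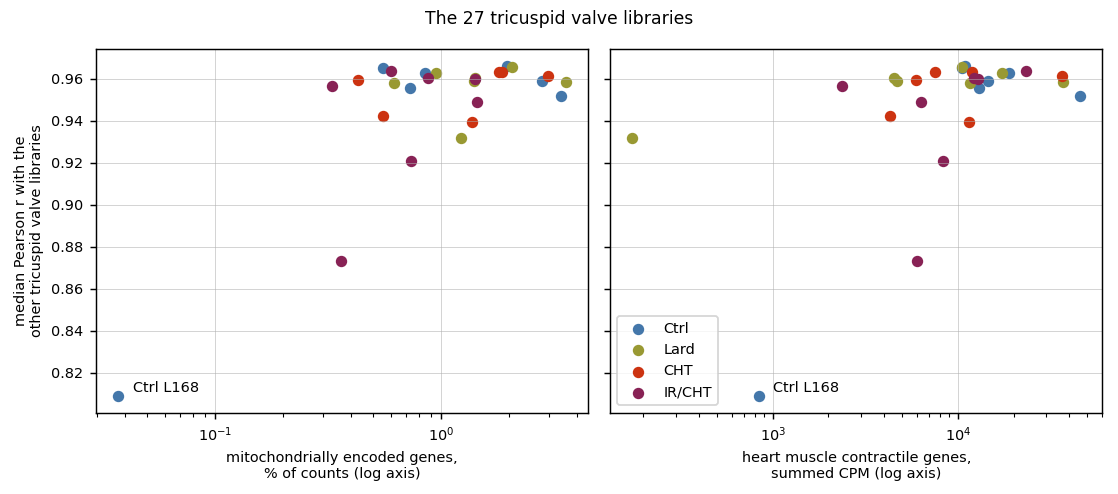
Each point is 1 of the 27 tricuspid valve libraries. The vertical axis is the median Pearson correlation (log2 CPM) with the other tricuspid valve libraries, and the horizontal axes are the percentage of counts from mitochondrially encoded genes (left) and the summed CPM of heart muscle contractile genes (right), both on log axes. Ctrl L168 lies lowest at 0.809 and farthest left for mitochondrial counts at 0.0373%.

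Cholesterol feeding was accompanied by lower RNA of sterol synthesis genes and higher RNA of LXR targets, and few other genes passed the test. Of 14700 genes tested, 24 differed between CHT and Ctrl at an adjusted p under 0.05 and a fold change over 1.5 (differentially expressed genes, DEGs), a background of 0.163%. Of these, 12 were higher on CHT (0.0816%) and 12 were lower (0.0816%). At an unadjusted p under 0.05 there were 1109 genes, 7.54% of those tested. The median log2 fold change over all genes was -0.05. The count moved with single libraries: it was 36 without Ctrl L168 (23 of the 24 among them), 13 without CHT L160, 15 without CHT L247 and 15 without Ctrl L280. Within plate 1 (5 Ctrl and 4 CHT libraries) it was 20, of which 13 were among the 24, and within plate 2 (2 against 2) it was 0. Ctrl L168 was on plate 2, so every fit of plate 1 alone also left it out.

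The cholesterol synthesis enzymes were the largest group among the lower genes. Of the 20 enzymes listed, 14 were in the table and all 14 passed the filter on low counts. Of these, 8 fell and none rose, or 57.1% against 0.0816% of all genes called lower, and the list median log2 fold change was -1.03 against -0.05 over all genes. All 14 point estimates were below 0, and 13 had an unadjusted p under 0.05.

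At the entry to the pathway, ACAT2, which joins acetyl groups in the cytosol, ran from 8.398 to 17.6 CPM (median 15.1) in Ctrl and from 6.12 to 9.42 CPM (median 7.45) in CHT. The groups overlapped, with 5 of 6 CHT libraries below every Ctrl library, and the log2 fold change was -0.91 ± 0.18 (SE, adjusted p = 0.0231). HMGCS1, which makes HMG-CoA, ran from 13.7 to 55.9 CPM (median 41.6) in Ctrl and from 14.3 to 21.3 CPM (median 15.6) in CHT. Its lowest Ctrl value was that of L168, the sole Ctrl library inside or under the CHT range, and its log2 fold change was -1.22 ± 0.21 (SE, adjusted p = 0.00665), or -1.36 without L168.

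SQLE, the squalene epoxidase that opens the sterol branch, had the largest change of the synthesis enzymes. It ran from 12.4 to 31.8 CPM (median 20.9) in Ctrl and from 3.38 to 6.66 CPM (median 5.60) in CHT, without overlap, at a log2 fold change of -2.02 ± 0.26 (SE, adjusted p = 0.000165). CYP51A1, the lanosterol demethylase, had the smallest p of the lower genes. It ran from 30.4 to 50.8 CPM (median 37.6) in Ctrl and from 14.2 to 19.8 CPM (median 15.8) in CHT, with a log2 fold change of -1.28 ± 0.15 (SE, adjusted p = 6.12e-05). MSMO1, which removes methyl groups at the next steps, ran from 6.42 to 22.9 CPM (median 16.2) in Ctrl and from 3.33 to 5.92 CPM (median 5.30) in CHT. Again the groups did not overlap, and the log2 fold change was -1.71 ± 0.25 (SE, adjusted p = 0.000870).

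NSDHL, the dehydrogenase that works with MSMO1, ran from 14.0 to 34.2 CPM (median 26.6) in Ctrl and from 8.90 to 15.8 CPM (median 10.7) in CHT, and 4 of 6 CHT libraries lay below every Ctrl library. Its log2 fold change was -1.04 ± 0.18 (SE, adjusted p = 0.00665).

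Of the 14 enzymes, 6 did not pass by edgeR, while DESeq2 called 9 of the 14 lower and limma voom 11. The limma voom fit, here and below, weighted libraries by quality and was chosen after the data were seen. FDFT1, squalene synthase, had a log2 fold change of -0.84 ± 0.21 (SE, adjusted p = 0.144), and its 36.1 CPM in Ctrl L168 was below all CHT libraries (47.1 to 66.9 CPM). Without L168, whose 6 fellow Ctrl libraries held 84.3 to 141 CPM, FDFT1 passed at -0.98 ± 0.15 (SE, adjusted p = 0.00126), and with all libraries it was called by DESeq2 (adjusted p = 0.0390) and limma voom (adjusted p = 0.000116). FDPS (-1.02 ± 0.27, adjusted p = 0.208) did not pass by edgeR although every CHT library lay below every Ctrl library, and limma voom called it (adjusted p = 0.0167). SC5D was likewise called by limma voom alone of the 3 tools (adjusted p = 0.000740). MVK, LSS, SC5D and PMVK had log2 fold changes from -1.26 (MVK) to -0.13 (PMVK), and without L168 LSS went from -0.88 to -0.14 and PMVK to -0.03.

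Of 12 genes of sterol sensing and uptake, 10 were in the table and 9 passed the filter. Of these 9, 3 were called (33.3% against 0.163% of all genes): 2 fell, INSIG1 among them, and 1 rose (MYLIP, which is also on the LXR list). The other 6 did not pass, and the list median was -0.46 (-0.11 without L168). INSIG1, which retains the SREBP2 escort SCAP, ran from 15.4 to 48.2 CPM (median 34.1) in Ctrl and from 7.201 to 19.2 CPM (median 9.62) in CHT, at -1.55 ± 0.28 (SE, adjusted p = 0.00878). Of its 7 Ctrl libraries, L168 alone lay within the CHT range.

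The gene of the regulator itself, SREBF2, did not pass (-2.25 ± 0.67, adjusted p = 0.386), with a Ctrl range of 9.37 to 235.1 CPM and a CHT range of 6.72 to 21.7 CPM. Without Ctrl L168 its estimate was -0.89, and in 1 model of all 5 tissues it was called (-2.15, adjusted p = 0.0392). SCAP (-0.46 ± 0.32, and 0.10 without L168) and the protease gene MBTPS1 (-0.18 ± 0.12, -0.11 without L168 and -0.06 without CHT L231) did not pass, and INSIG2 had a positive estimate (0.49 ± 0.21, adjusted p = 0.619). STARD4, a sterol carrier, had -0.86 ± 0.23 (SE, adjusted p = 0.246) and was called by limma voom (adjusted p = 0.0124).

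LXR targets moved the other way. Of 11 listed, 8 were in the table and 7 passed the filter, of which 3 rose and none fell (42.9% against 0.0816% of all genes called higher). The median log2 fold change was 0.81 and all 7 estimates were above 0. ABCA1, the exporter that loads cholesterol onto apolipoprotein A-I, ran from 59.5 to 148 CPM (median 111) in Ctrl and from 488 to 810 CPM (median 684) in CHT. The lowest CHT library was thus far above the highest Ctrl library, and the change of 6.47-fold (log2 2.69 ± 0.21, SE, adjusted p = 2.13e-08) had the smallest p of all genes. NR1H3, which encodes LXRα and is itself an LXR target, ran from 2.92 to 12.0 CPM (median 6.65) in Ctrl and from 12.5 to 21.6 CPM (median 17.1) in CHT. The groups stood side by side without overlap, at 1.36 ± 0.29 (log2, SE, adjusted p = 0.0464).

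MYLIP, a ubiquitin ligase, ran from 71.1 to 137 CPM (median 88.1) in Ctrl and from 149 to 203 CPM (median 171.4) in CHT, again without overlap. Its log2 fold change was 0.85 ± 0.16 (SE, adjusted p = 0.0158). LPCAT3, a phospholipid remodelling enzyme, lay above every Ctrl library in all 6 CHT libraries but did not pass by edgeR (0.81 ± 0.19, adjusted p = 0.0971). It was called by DESeq2 (adjusted p = 0.0120) and limma voom (adjusted p = 0.0204), each of which called 4 LXR targets higher. SMPDL3A, APOC1 and PLTP had estimates of 0.23 (PLTP, 0.83 without L168) to 0.54 (APOC1, 0.32 without Ctrl L264) and did not pass.

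**Figure D2:**
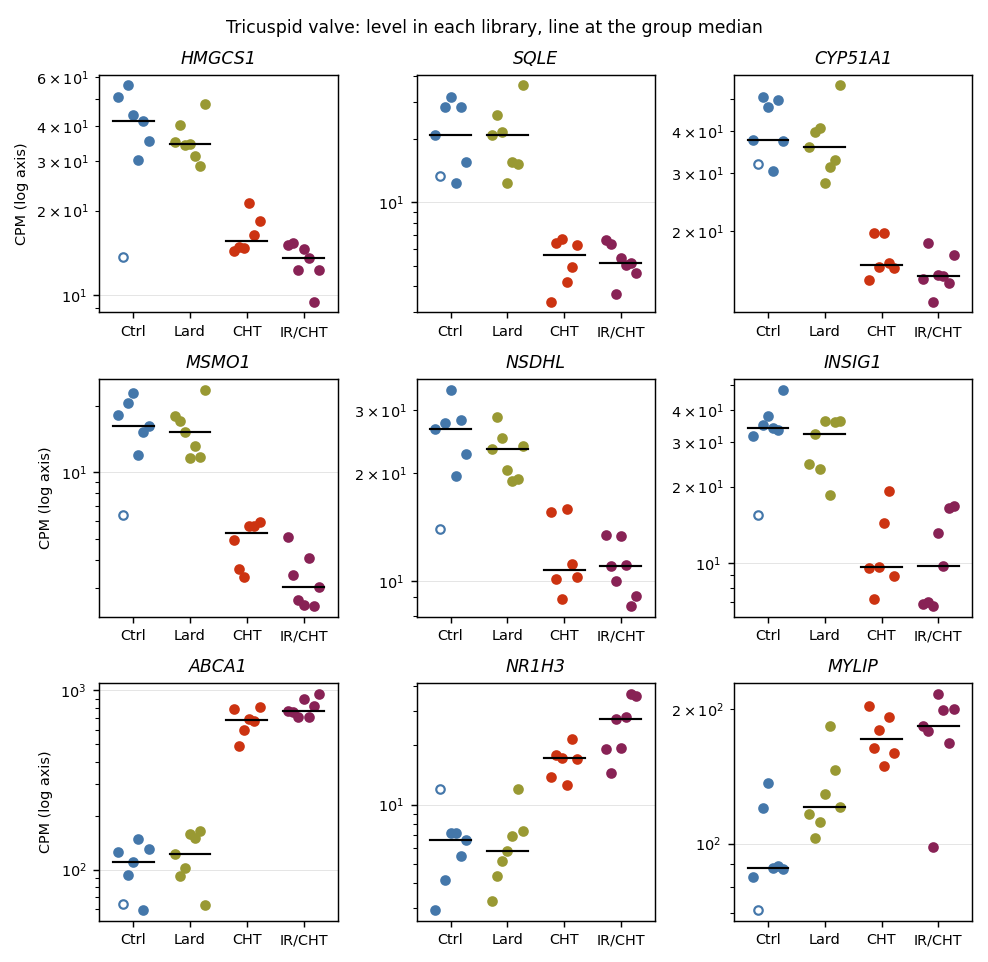
CPM (log axis) of 9 genes in each tricuspid valve library of the 4 groups, 1 point per library, with a line at the group median. The open symbol is Ctrl L168. In the upper rows, SQLE, CYP51A1 and MSMO1 show no overlap of CHT and Ctrl, while in the lowest row ABCA1, NR1H3 and MYLIP lie higher in all 6 CHT than in all 7 Ctrl libraries.

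Outside sterol metabolism, the higher genes included 2 that are known from macrophages. TIMD4, a receptor for phosphatidylserine on resident macrophages, had 0 counts in 4 of 7 Ctrl libraries and 1, 4 and 8 counts in the other 3. In CHT it had 10 to 108 counts (0.4932 to 6.63 CPM), more than in any Ctrl library, and its fitted log2 fold change was 4.95 ± 0.93 (SE, adjusted p = 0.0156), a value that depends on the prior count and was 6.01 without Ctrl L243. MPEG1, a pore-forming protein of phagocytes, ran from 8.26 to 14.6 CPM (median 9.66) in Ctrl and from 18.7 to 34.9 CPM (median 29.5) in CHT. Every CHT library was above every Ctrl library, at 1.35 ± 0.26 (log2, SE, adjusted p = 0.0158).

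The macrophage marker list as a whole did not pass: 14 of its 17 genes were tested, 0 were DEGs by edgeR, 3 had an unadjusted p under 0.05 and the median was 0.34. DESeq2 and limma voom each called 1, ITGAM, the integrin chain CD11b. ITGAM ran from 4.04 to 9.53 CPM (median 6.03) in Ctrl and from 8.71 to 18.7 CPM (median 14.1) in CHT (log2 1.14 ± 0.25, SE, adjusted p = 0.0536), and it passed without Ctrl L168 (1.29 ± 0.25, adjusted p = 0.0152). VSIG4, a complement receptor of resident macrophages, had 0.69 ± 0.22 (adjusted p = 0.471) and CD68, a lysosomal marker, 0.36 ± 0.20 (adjusted p = 0.619, and 0.58 without L168). On plate 1 alone, which does not hold L168, ITGAM (1.42 ± 0.24) and CD68 (0.77 ± 0.13) were both called at an adjusted p of 0.0149. On plate 2 alone, where L168 was 1 of 2 Ctrl libraries, the estimate of CD68 was -0.40. Plate and L168 cannot be told apart in this pair of fits. CD163, the haemoglobin scavenger receptor, had -0.20 ± 0.28 (-0.07 without Ctrl L159), and MRC1 -0.05 ± 0.25 (-0.17 without L168). The summed level of the 15 macrophage genes in the table was 624 to 898 CPM in Ctrl and 645 to 994 CPM in CHT, so the groups overlapped. The part of macrophage number in the TIMD4 and MPEG1 results was not tested.

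Scavenger receptors and foam cell genes had 0 DEGs among 11 tested by each of edgeR, DESeq2 and limma voom, with 2 at an unadjusted p under 0.05 and a median of 0.12. On plate 1 alone 1 was called, CD68, which is on this list too. The largest estimate was that of OLR1, the receptor LOX-1 (1.60 ± 0.45, adjusted p = 0.286), whose 4.51 CPM in CHT L231 stood apart from 0.512 to 1.05 CPM in the other CHT libraries, and without L231 the estimate was 0.80. GPNMB, a gene of lipid-laden macrophages, had 1.18 ± 0.44 (adjusted p = 0.606), and 0.43 without CHT L172. MSR1, a scavenger receptor, had 0.48 ± 0.36, and SPP1, osteopontin, -0.33 ± 0.39 (-0.04 without L168). Genes of cholesterol transport and storage inside cells had 0 DEGs among 11 by all 3 tools and 1 at an unadjusted p under 0.05, SCARB2 (0.33 ± 0.12).

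The other higher DEGs with a symbol were GCLC, APOD, LIPG, SLC7A14, RASGEF1B and SGK3. GCLC, the catalytic chain of the enzyme that starts glutathione synthesis, ran from 13.8 to 20.8 CPM (median 16.3) in Ctrl and from 19.2 to 41.6 CPM (median 29.5) in CHT, and 5 of 6 CHT libraries were above every Ctrl library (log2 0.84 ± 0.14, SE, adjusted p = 0.00665). It was the only DEG among 9 glutathione and NRF2 target genes tested, whose median was -0.06 (0.17 without L168). HMOX1, haem oxygenase, had 0.96 ± 0.45 (adjusted p = 0.619), and 0.64 without CHT L172. APOD, a lipocalin that binds small lipids, ran from 13.4 to 395 CPM (median 75.8) in Ctrl and from 339 to 2379 CPM (median 737) in CHT. The overlap came from Ctrl L168 at 395 CPM, and 4 of 6 CHT libraries were above it (log2 2.82 ± 0.59, SE, adjusted p = 0.0464, and 3.40 ± 0.58 without L168).

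LIPG, endothelial lipase, was at 0 counts in 5 of 7 Ctrl libraries and at 2 and 3 counts in the other 2. In CHT it had 0 counts in L172 and 7 to 62 counts in the other 5, with a fitted log2 fold change of 4.53 ± 0.97 (SE, adjusted p = 0.0489) that depends on the prior count and ranged from 3.598 (without CHT L160) to 5.37 (without Ctrl L201) as single libraries were left out. Like TIMD4, LIPG was not tested when only the 13 CHT and Ctrl libraries were fitted. SLC7A14, a lysosomal amino acid transporter family member, ran from 16.9 to 47.2 CPM (median 26.99) in Ctrl and from 47.4 to 154.1 CPM (median 101) in CHT. The ranges met without overlapping, at 1.74 ± 0.36 (log2, SE, adjusted p = 0.0423). RASGEF1B, an exchange factor for Rap GTPases, ran from 16.8 to 33.3 CPM (median 25.6) in Ctrl and from 32.8 to 66.9 CPM (median 49.4) in CHT (0.97 ± 0.21, adjusted p = 0.0464). SGK3, a kinase of endosomes, ran from 15.8 to 23.4 CPM (median 20.6) in Ctrl and from 25.7 to 37.6 CPM (median 30.01) in CHT (0.61 ± 0.13, adjusted p = 0.0496).

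Among the lower DEGs, CRY1, a repressor of the circadian clock, was the one with a symbol and no known step in sterol metabolism. It ran from 10.8 to 18.3 CPM (median 14.6) in Ctrl and from 3.11 to 11.3 CPM (median 5.27) in CHT, with 5 of 6 CHT libraries below every Ctrl library (-1.20 ± 0.25, adjusted p = 0.0464). The last 2 DEGs carry no symbol in the table: ENSOCUG00000029958 was higher (2.31 ± 0.33, adjusted p = 0.000629) and ENSOCUG00000007493 was lower (-1.76 ± 0.33, adjusted p = 0.0126).

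Over all genes tested, the 6 CHT libraries lay above all 7 Ctrl libraries for 27 genes (0.184%) and below them for 18 genes (0.122%). Of the 24 DEGs, 8 were in the first group and 6 in the second. Genes separated in this way that did not pass the test included ACSS2, cytosolic acetyl-CoA synthetase (8.68 to 19.5 CPM in CHT and 20.2 to 39.8 CPM in Ctrl, -0.90 ± 0.20, adjusted p = 0.0623), and the smooth muscle myosin gene MYH11 (-1.01 ± 0.33, adjusted p = 0.484).

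The 24 calls did not rest equally on the libraries. When each of the 13 libraries was left out in turn, 12 DEGs passed every time, among them CYP51A1, SQLE, MSMO1, HMGCS1, NSDHL, INSIG1, ABCA1, GCLC and ENSOCUG00000029958. TIMD4 and ENSOCUG00000007493 failed without CHT L160 (adjusted p = 0.0505 and 0.0514), and MPEG1 failed without CHT L160 or Ctrl L185 (adjusted p up to 0.0619). MYLIP failed without CHT L160, CHT L247, Ctrl L159, Ctrl L243 or Ctrl L280 (adjusted p up to 0.0619). ACAT2 failed in 8 fits (kept without CHT L172, Ctrl L159, Ctrl L168, Ctrl L185 or Ctrl L243). SLC7A14 failed in 9 (kept without CHT L172, CHT L268, Ctrl L168 or Ctrl L264), and LIPG in 9 (kept without CHT L172, CHT L231, Ctrl L168 or Ctrl L201). APOD and CRY1 failed in 10 each, and both kept the call without Ctrl L168. RASGEF1B also failed in 10, Ctrl L168 among them. NR1H3 (kept without CHT L231 or Ctrl L168) and SGK3 (kept without CHT L172 or Ctrl L168) failed in 11. The number of sterol synthesis enzymes called lower was 7 to 9 in these fits, and that of LXR targets called higher was 1 to 3. ABCA1 alone of the LXR targets was called without CHT L160, CHT L247, Ctrl L159, Ctrl L243 or Ctrl L280.

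The calls also moved with the libraries in the model. With only the 13 Ctrl and CHT libraries fitted, 5 DEGs remained, among them SQLE (adjusted p = 0.0137), CYP51A1 (adjusted p = 0.00968) and ABCA1 (adjusted p = 9.74e-05). These were 2 synthesis enzymes in place of 8 and 1 LXR target in place of 3, no sterol sensing gene was called lower, and MSMO1, HMGCS1, NSDHL, INSIG1 and GCLC lost the call. TIMD4 and LIPG did not pass the filter on low counts in that fit and were not tested. The same fit without Ctrl L168 called 8 synthesis enzymes, 2 sensing genes lower and 3 LXR targets. On plate 1 alone, also without Ctrl L168, these counts were 8, 1 and 3, and on plate 2 alone (2 against 2) all were 0.

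Leaving out Ctrl L168 added 13 DEGs, 10 with a symbol. Besides FDFT1 and ITGAM, these were WIF1, a secreted WNT inhibitor (1.17 ± 0.22, adjusted p = 0.0131), FZD4, a WNT receptor (-0.86 ± 0.18, adjusted p = 0.0371), LTF, lactoferrin (2.18 ± 0.43, adjusted p = 0.0192), PROCR, the protein C receptor of endothelium (0.81 ± 0.17, adjusted p = 0.0371), GRAMD1B, a carrier of cholesterol from the plasma membrane (0.62 ± 0.13, adjusted p = 0.0371), RARRES2, chemerin (0.69 ± 0.15, adjusted p = 0.0371), SYT6 and TBC1D30. With all libraries none of the 10 passed by edgeR: LTF had 1.36 ± 0.50 (adjusted p = 0.566), PROCR 0.48 ± 0.23 (adjusted p = 0.619), SYT6 0.53 ± 0.22 (adjusted p = 0.619) and RARRES2 0.59 ± 0.15 (adjusted p = 0.199). The estimates of WIF1, GRAMD1B, TBC1D30 and FZD4 were then 0.99, 0.54, 1.03 and -0.78. WIF1 ran from 35.7 to 72.7 CPM in the 6 other Ctrl libraries and was 105 CPM in L168, within the CHT range of 68.7 to 174.2 CPM. Of the 10 genes, FDFT1 was on the list of fixed genes, ITGAM, LTF and RARRES2 were named for their p by the rule for named genes, and the others were named after their values were seen.

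Levels in the other 2 diet groups stood beside these as follows, without a test. In the Lard valves, whose rabbits drank the same vitamin D2 and ate no added cholesterol, ABCA1 ran from 63.2 to 164 CPM, SQLE from 12.4 to 36.0 CPM and CYP51A1 from 28.01 to 55.1 CPM. Each of these ranges lay outside the CHT range. For all 24 DEGs the Lard range overlapped that of Ctrl, and for 12 of them it also overlapped the CHT range. SLC7A14 ran from 37.1 to 96.1 CPM in Lard, with 6 of 7 Lard libraries inside the CHT range, and MYLIP from 103 to 182.9 CPM, with 1 of 7 inside it. Of the sterol genes, INSIG1 (18.6 to 36.2 CPM) and ACAT2 (8.55 to 17.3 CPM) also overlapped CHT in 1 Lard library each. In the IR/CHT valves, ABCA1 ran from 707 to 958 CPM, SQLE from 3.68 to 6.59 CPM and CYP51A1 from 12.2 to 18.4 CPM. All 7 IR/CHT libraries were above every Ctrl library for ABCA1, NR1H3, TIMD4, APOD and LIPG, and below every Ctrl library for CYP51A1, SQLE, MSMO1 and NSDHL. For HMGCS1 4 of 7 IR/CHT libraries were below every Ctrl library (0 of 6 in CHT), and for ACAT2 1 of 7 (5 of 6 in CHT). MPEG1 ran from 13.7 to 74.9 CPM in IR/CHT and from 11.1 to 18.9 CPM in Lard. For CRY1 (7.12 to 12.5 CPM in IR/CHT) 3 of 7 IR/CHT libraries were below every Ctrl library, and for SGK3 (17.4 to 28.9 CPM in IR/CHT) 4 of 7 were above.

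The other lists held no DEG by edgeR. Interferon response genes had a median of 0.63, with 0 of 13 called by edgeR, DESeq2 or limma voom and 8 higher at an unadjusted p under 0.05, which 7.54% of all genes had in either direction. OASL (1.73 ± 0.46, adjusted p = 0.227) had the smallest p, and it was called without Ctrl L201 (2.28 ± 0.45, adjusted p = 0.0308). Its levels were low, 0.0563 to 0.630 CPM in Ctrl and 0.256 to 1.64 CPM in CHT. Fatty acid synthesis genes had 0 of 10 by edgeR, 7 at an unadjusted p under 0.05 (4 higher, 3 lower) and a median of -0.03, and DESeq2 called 1, ACSS2, which also passed with plate as a covariate (adjusted p = 0.0466), in 1 model of all 5 tissues and without Ctrl L264 (adjusted p = 0.0469). The estimate of ME1, malic enzyme, was 0.74 ± 0.21 (adjusted p = 0.340).

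Inflammatory mediators and adhesion genes had 0 of 15 by all 3 tools, 4 at an unadjusted p under 0.05 and a median of 0.04 (0.17 without L168). PTGS2, cyclooxygenase-2, had 0.69 ± 0.23 (adjusted p = 0.490), NLRP3, an inflammasome sensor, -1.07 ± 0.36 (adjusted p = 0.518, and -0.57 without L168), and CCL2, a monocyte chemoattractant, 0.74 ± 0.38. TNF, IL1B and CYP24A1 did not pass the filter on low counts, and IDI1, SCD and VCAM1 had no row by symbol. MHC class II genes had 0 of 7 by all 3 tools and 0 at an unadjusted p under 0.05, with a median of -0.06 (0.25 without L168). CIITA, their activator, had -0.94 ± 0.84, which turned to 1.15 without L168, and RFX5 had -0.37 ± 0.25 (-0.08 without L168).

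Calcification and matrix genes likewise did not pass. Osteogenic genes had 0 of 13 by all 3 tools, 1 at an unadjusted p under 0.05 (ANKH, a pyrophosphate transporter, -0.37 ± 0.17, and -0.23 without L168) and a median of -0.23 (-0.08 without L168). ALPL, alkaline phosphatase, had -1.07 ± 0.65 (-1.71 without CHT L172), and RUNX2, the osteoblast regulator, was under 1 CPM in every library of both groups (-0.41 ± 0.46, and -0.18 without Ctrl L185). Valve matrix and interstitial cell genes had 0 of 18 by all 3 tools, 5 at an unadjusted p under 0.05 and a median of -0.08 (0.02 without L168). COL1A1 ran from 360 to 8540 CPM in Ctrl and from 175.7 to 687 CPM in CHT (-2.10 ± 0.77, adjusted p = 0.571), and the estimate without Ctrl L168 was -0.22. COL3A1 (-0.78 ± 0.27, adjusted p = 0.535) had 9402 CPM in L168 and 2994 to 3634 CPM in the other Ctrl libraries, and its estimate without L168 was -0.42. LUM, a small proteoglycan, had -0.54 ± 0.18 (adjusted p = 0.475).

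Vitamin D response genes had 0 of 4 by all 3 tools and 0 at an unadjusted p under 0.05. VDR, the vitamin D receptor, had -1.01 ± 0.66, which went to -0.06 without L168, and the hormone FGF23 had 1.77 ± 1.11 (2.98 without L168). Endoplasmic reticulum stress genes had 0 of 9 by all 3 tools and 2 lower at an unadjusted p under 0.05, HSPA5 (-0.30 ± 0.14) and HERPUD1 (-0.22 ± 0.11). Cell division genes had 0 of 18 by all 3 tools and 0 at an unadjusted p under 0.05, with NCAPG at -0.69 ± 0.42 and BUB1 at -0.52 ± 0.39. Immediate early genes had 0 of 12 by all 3 tools and 2 higher at an unadjusted p under 0.05, FOS (1.33 ± 0.48, and 0.53 without CHT L172) and IER3 (0.58 ± 0.23). The medians of the cell division list (-0.20) and of the immediate early list (-0.05) were -0.04 and 0.79 without L168.

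Markers of other cells in the dissected tissue did not pass either. Adipocyte markers had the lowest list median, -1.69, with all 6 tested estimates below 0, 0 called by the 3 tools and 3 at an unadjusted p under 0.05. LEP, leptin, had -4.20 ± 1.15 (adjusted p = 0.258, and -5.35 without CHT L160) and CIDEA, a lipid droplet protein, -2.30 ± 0.74 (adjusted p = 0.471, and -1.24 without Ctrl L280). The summed adipocyte level was 19.0 to 205 CPM in Ctrl and 8.19 to 35.2 CPM in CHT. Heart muscle contractile genes had 0 of 13 by all 3 tools and 0 at an unadjusted p under 0.05, with a median of -0.53 (LDB3 -0.75 ± 0.66, TNNC1 -0.57 ± 0.69, CSRP3 -0.72 ± 0.66) that ranged from -0.99 to -0.16 as single libraries were left out. Other heart muscle genes had 0 of 13 by all 3 tools, 0 at an unadjusted p under 0.05 and a median of -0.51 (CORIN -0.78 ± 0.71, HSPB7 -0.69 ± 0.69, MB -0.44 ± 0.86) that ranged from -0.96 to -0.07. The estimate of MB, myoglobin, was -1.21 without CHT L268 and turned to 0.31 without Ctrl L243, and in the same pair of fits that of HSPB7 was -1.03 and -0.15 and that of TNNC1 was -1.18 and -0.17. Without Ctrl L243 the estimate of LDB3 was -0.41 and that of CORIN was -0.49. With the mean heart muscle level as a covariate there were 25 DEGs, 23 of them among the 24.

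Smooth muscle contractile genes had 0 of 7 by all 3 tools and 2 at an unadjusted p under 0.05, MYH11 and SYNPO2 (0.34 ± 0.15), and ACTA2, smooth muscle actin, had 0.19 ± 0.45 (0.79 without L168). The median of that list was -0.27, and 0.31 without L168. Endothelial markers had 0 of 11 by all 3 tools, 0 at an unadjusted p under 0.05 and a median of 0.14 (VWF -0.58 ± 0.28, ENG -1.004 ± 0.54). The estimate of ENG turned to 0.14 without L168, and the list median to -0.02 without CHT L172. Few genes of the blood cell lists passed the filter. The neutrophil list had 2 tested and 0 called by edgeR or DESeq2, 1 at an unadjusted p under 0.05, and LTF called by limma voom. T cells had 1 tested (LCK -0.86 ± 0.46), B cells 2 and red blood cells 4, and none of these was called by any of the 3 tools or had an unadjusted p under 0.05. The same held for Schwann cell and melanocyte markers (6 tested, MITF -0.36 ± 0.24, and -0.22 without Ctrl L243) and for epicardial and mesothelial markers (1 tested, WT1 0.36 ± 0.30, and 0.20 without L168).

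**Figure D3:**
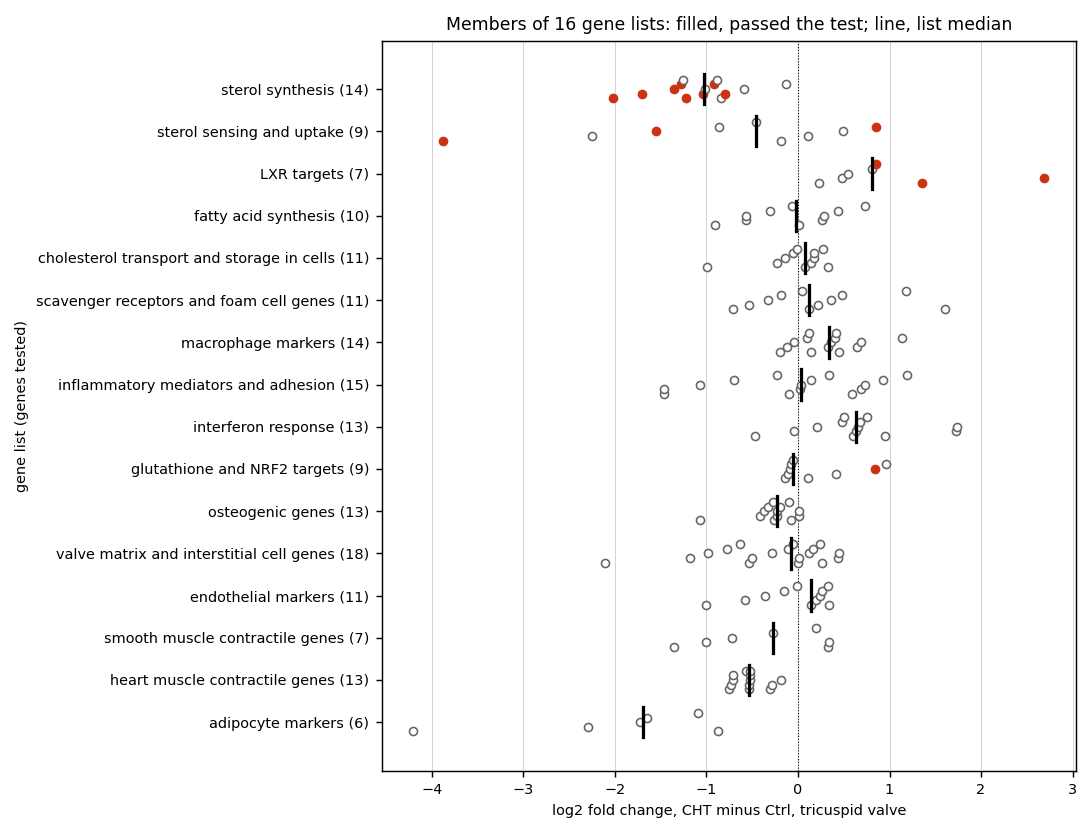
Log2 fold change (CHT minus Ctrl) of every tested member of 16 gene lists in the tricuspid valve, with the number tested in brackets. Filled points passed the test and the line is the list median. Filled points lie among sterol synthesis (8 of 14, median -1.03), sterol sensing and uptake (3 of 9), LXR targets (3 of 7, median 0.81) and the glutathione list (1 of 9).

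The question of whether the tricuspid valve responded as the other valves did was addressed with the mitral valve (6 CHT and 6 Ctrl) and the pulmonary valve (6 CHT and 7 Ctrl) of the same rabbits. The mitral valve had 861 DEGs (5.62% of genes tested) and the pulmonary valve 23 (0.159%). Of the 24 tricuspid DEGs, 23 were tested in the mitral valve and 19 were called there, and 23 were tested in the pulmonary valve and 16 were called there. All 23 had the same sign in each of the 2 valves, and 14 were called in all 3. The valves share animals, so these counts are not independent of each other.

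The difference between valves was tested by an interaction. Against the pulmonary valve, 0 of 15372 genes differed by edgeR (0%), with 469 at an unadjusted p under 0.05 and a smallest adjusted p of 0.715. A shared response is not shown by that count: the median SE of the difference was 0.37 on the log2 scale. SQLE changed by -2.02 in the tricuspid and by -2.05 in the pulmonary valve, HMGCS1 by -1.22 and -1.09, and ABCA1 by 2.69 and 2.47. MYLIP (0.32 ± 0.10, adjusted p = 0.222) and NR1H3 (1.27 ± 0.29, adjusted p = 0.0739) did not pass in the pulmonary valve, and for neither was a difference between the valves detected.

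Against the mitral valve, 354 of 15890 genes differed (2.23%), 340 with a lower and 14 with a higher CHT effect in the tricuspid valve. All 6 mitral CHT libraries were on plate 1, against 4 of 6 in the tricuspid valve, and within plate 1 the share was 2.05% (65 genes higher). With the rabbit as a block it was 3.01% (92 genes higher). None of the 14 sterol synthesis enzymes, 9 sterol sensing genes or 8 LXR targets tested was among them, although ABCA1 (-1.07, adjusted p = 0.0551) passed with the rabbit as a block (-1.18, adjusted p = 0.000153). ABCA1 rose by 3.77 ± 0.25 (log2, SE) in the mitral valve.

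The genes that differed included macrophage and foam cell genes. Of 15 macrophage markers tested for the difference, 6 had a lower CHT effect in the tricuspid valve (CD14, AIF1, FCER1G, CD68, ITGAM, TYROBP), as did 7 of 12 scavenger receptor and foam cell genes (MMP12, FABP5, CTSK, SPP1, LGALS3, CD68, GPNMB), against 2.23% of all genes. In the tricuspid valve itself 14 and 11 of these genes passed the filter. MMP12 did not pass it there and entered the test of the difference with the mitral valve libraries. CD68 changed by 0.36 ± 0.20 in the tricuspid and 2.65 in the mitral valve (difference -2.28, adjusted p = 0.000131), and SPP1 by -0.33 and 2.34 (difference -2.65, adjusted p = 0.000998). ITGAM differed by -2.85 and GPNMB by -4.71. MPEG1, although a DEG in both, rose by 1.35 in the tricuspid and 3.43 in the mitral valve (difference -2.07 ± 0.54, SE, adjusted p = 0.0238), and ENSOCUG00000029958 by 2.31 and 5.50 (difference -3.18 ± 0.55, adjusted p = 0.000194).

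Among the other lists, cell division (7 of 19 tested, 18 of which passed the filter in the tricuspid valve), MHC class II (3 of 7) and cholesterol transport (3 of 11) had the most members in that direction, and MYH11 of the smooth muscle list differed by -4.32 ± 0.59. The genes with the smallest p were ANO4, a membrane protein of the anoctamin family (-6.39 ± 0.60, adjusted p = 4.34e-10), NYAP2 (-6.98 ± 0.88, adjusted p = 1.21e-06) and GAS2L3, which links actin and microtubules (-2.43 ± 0.31, adjusted p = 1.22e-06). ANO4 ran from 0.251 to 1.33 CPM in the tricuspid CHT libraries and NYAP2 did not pass the filter in that valve. Higher CHT effects in the tricuspid valve were seen for MXI1, an antagonist of MYC (0.57 ± 0.15, adjusted p = 0.0203), CACHD1 (0.79 ± 0.21, adjusted p = 0.0238) and RARRES2 (0.73 ± 0.19, adjusted p = 0.0275). None of the 3 was a DEG in the tricuspid valve.

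**Figure D4:**
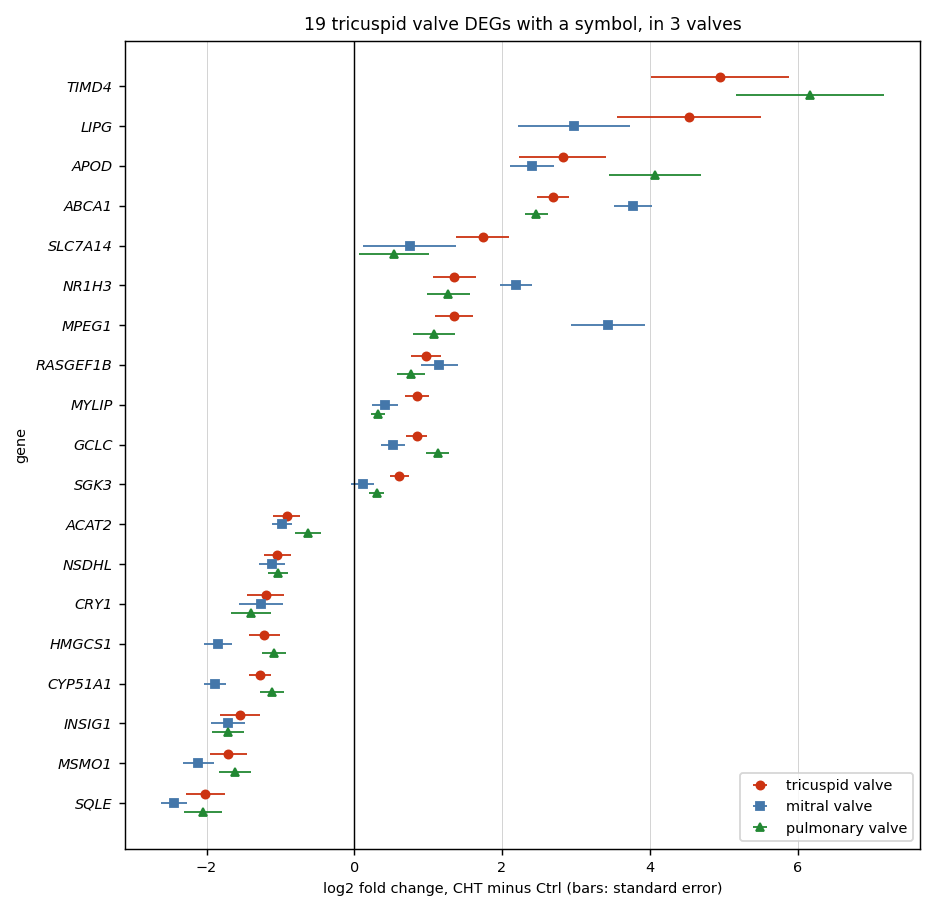
Log2 fold change of CHT against Ctrl with its standard error for 19 tricuspid DEGs that have a symbol, in the tricuspid (circles), mitral (squares) and pulmonary (triangles) valves. All points of a gene lie on the same side of 0, and MPEG1 is set apart in the mitral valve (3.43 against 1.35); TIMD4 was not tested in the mitral and LIPG not in the pulmonary valve.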

How the data were processed

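RNA was sequenced from snap-frozen valves after a low-input stranded total RNA kit from 10 ng of RNA. The authors trimmed, aligned and counted read pairs with the nf-core RNA-seq pipeline on OryCun2.0 with Ensembl annotation, and deposited raw counts per gene for each library (29587 genes, 14716 with a symbol) in 2 plates; per the labels, bcl2fastq 2.20 made the reads. All columns were used (0 left out). No library pair was a repeat: within groups the chi-square of counts per degree of freedom was at least 25.5.

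Counts of the 27 tricuspid libraries were fitted in 1 edgeR 4.0.16 quasi-likelihood model of 4 groups (R 4.3.3), with filterByExpr, TMM scaling, robust dispersion and Benjamini-Hochberg adjustment. DEGs had an adjusted p under 0.05 and a fold change over 1.5; the difference between valves was called at an adjusted p under 0.05. DESeq2 1.42.0, limma 3.58.1 voom with quality weights, scaling, filter, plate, heart muscle covariate, samples fitted and left-out libraries were tried as alternatives. The scripts were tested on simulated data. For the differences between valves, rabbits were the pairs: column names share a rabbit prefix, and deviations from group means correlated at a median of 0.299 (tricuspid and mitral, 26 rabbits) and 0.320 (tricuspid and pulmonary, 27 rabbits). Named genes were all DEGs, the 2 smallest p in each of 28 gene lists, a set of fixed genes and the 3 smallest p in each direction of each difference between valves. Some named genes are not reported here. The comparison, lists and rules were chosen with earlier results of these data known. The other 2 tissues were used only in an alternative fit.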

Additional observations from a re-analysis of the deposited data

Results flagged for a closer look

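Among the named genes reported here and 2 library measures, each examined in the 7 Ctrl and in the 6 CHT libraries, 20 sets had a lowest or highest library farther from its neighbour than Dixon's 95% value allows. Chance flags about 1 in 20 such sets. Ctrl L168 was the library in 18 of the 20. The sets share the same libraries, so these flags are not independent of each other. Its median correlation with the other libraries was 0.809. It was the lowest Ctrl library for INSIG1 (15.4 CPM against 31.6 to 48.2), ENSOCUG00000007493 (2.10 CPM), FDFT1 (36.1 CPM), SCARB2 (100.5 CPM against 163 to 196.3), LUM (127 CPM against 222 to 309), and the heart muscle genes LDB3 (15.9 CPM), CSRP3 (15.8 CPM), CORIN (3.88 CPM) and TNNC1 (55.4 CPM). It was the highest for ENSOCUG00000029958 (2.92 CPM against 0.932 to 1.44), SCARB1 (17.4 CPM against 1.34 to 3.12), LTF (2.29 CPM), NLRP3 (33.3 CPM against 7.35 to 12.9), ENG (215.5 CPM against 14.6 to 31.6), COL3A1 (9402 CPM), COL1A1 (8540 CPM) and ACTA2 (125.5 CPM against 20.9 to 34.1).

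In the CHT group, OLR1 (4.51 CPM) and SYNPO2 (371 CPM against 583 to 717) stood apart in L231.

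The CHT effect differed between the tricuspid and the mitral valve, by the test of the difference itself, for MXI1 (0.57), CACHD1 (0.79), RARRES2 (0.73), ANO4 (-6.39), NYAP2 (-6.98), GAS2L3 (-2.43), ENSOCUG00000029958 (-3.18) and MPEG1 (-2.07), all on the log2 scale as tricuspid minus mitral.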

How the results depend on the processing

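The 24 tricuspid DEGs became 38 with DESeq2, 52 with limma voom and sample weights, 5 when only Ctrl and CHT libraries were fitted, 0 on plate 2 alone (2 against 2, 3476 genes at an unadjusted p under 0.05) and 38 without Ctrl L168 and IR/CHT L197. Fitting only Ctrl and CHT without Ctrl L168 gave 30. With 1 library left out they ranged from 13 (without CHT L160) to 36 (without Ctrl L168). The other settings gave 17 (no filter) to 32 (1 model of 5 tissues). The limma voom fit, the fit without Ctrl L168 and IR/CHT L197 and the Ctrl and CHT fit without Ctrl L168 were chosen after seeing the data. The share of genes whose CHT effect differed from the mitral valve (2.23%) was 1.57% with only Ctrl and CHT libraries (7 genes higher), 3.01% with the rabbit as a replicate block, and 1.21% (no filter) to 2.56% (plate as covariate) otherwise. The difference from the pulmonary valve stayed at 0 genes in all 7 alternatives (390 to 1200 at an unadjusted p under 0.05, and 534 with the replicate block). Of the named differences from the mitral valve, MXI1 (adjusted p = 0.0769) and RARRES2 (adjusted p = 0.151) failed with only Ctrl and CHT libraries and CACHD1 (adjusted p = 0.109) on plate 1 alone. No DEG reversed its direction in any setting. The cause of these changes was not tested. Levels under 1 CPM, such as those of LIPG and RUNX2 in Ctrl, rest on few counts.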

Other observations

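Because CRY1 was a DEG, the circadian clock genes were looked at after its value was seen, so the choice of list was not made beforehand. Of 15 tested, CRY1 was the only one called by edgeR, DESeq2 or limma voom, and 2 others had an unadjusted p under 0.05. PER2, a repressor like CRY1, ran from 2.74 to 52.1 CPM in Ctrl and from 0.802 to 6.12 CPM in CHT (-2.26 ± 0.74, adjusted p = 0.484), and its estimate was -1.12 without Ctrl L168. ARNTL, the activator BMAL1, ran from 3.29 to 32.5 CPM in Ctrl and from 13.1 to 53.5 CPM in CHT (1.24 ± 0.55, adjusted p = 0.619). CRY1 was also lower in the mitral (-1.27 ± 0.30, adjusted p = 0.00699) and pulmonary valves (-1.40 ± 0.27, adjusted p = 0.0154) of the same rabbits.

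Several genes separated the 6 CHT from the 7 Ctrl libraries without passing the test, and were picked for that. WWTR1, the transcriptional coactivator TAZ, ran from 397 to 563.9 CPM in CHT and from 205 to 382 CPM in Ctrl (0.72 ± 0.18, adjusted p = 0.191). LAMA1, a laminin chain of basement membranes, ran from 40.6 to 96.5 CPM in CHT and from 101 to 141 CPM in Ctrl (-1.06 ± 0.28, adjusted p = 0.208). GPC5, a glypican, ran from 8.52 to 17.1 CPM in CHT and from 3.599 to 7.44 CPM in Ctrl (1.27 ± 0.28, adjusted p = 0.0636).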
